A study of Homo sapiens with 4 samples.

Results

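The nuclear-encoded genes of the mitochondrial respiratory chain were examined in MCF10A cells, an established, non-tumour line of human mammary epithelium. The members were the symbols that begin with NDUFA, NDUFB, NDUFC, NDUFS, NDUFV, UQCR, COX4I, COX5, COX6, COX7, COX8 or ATP5, together with SDHA, SDHB, SDHC, SDHD and CYC1, without antisense names. This rule took 98 of the 25317 gene symbols in the deposited tables: 47 named for complex I, 4 for complex II, 11 for complex III, 17 for complex IV and 19 for complex V. They comprised 86 structural subunits or their isoforms, 7 assembly factors of complex I (NDUFAF names), 3 pseudogenes, and ATP5S and ATP5SL, which are named for ATP synthase but are not among its structural subunits.

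The study held 4 RNA sequencing libraries. The cells carried a lentivirus (pHIV-ZsGreen) with Zeb1 or Snail, which drive the epithelial-to-mesenchymal transition, with Ovol2, which drives the reverse transition, or with no insert (empty vector, EV). All were MCF10A cells grown in the same medium with horse serum, epidermal growth factor, cholera toxin and insulin, and fluorescent cells were sorted 6 days after delivery. Each group was 1 library, so no difference below has a replicate check, no p-value was computed, and the labels do not say whether a library pooled several cultures.

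The respiratory chain passes electrons from NADH (complex I) and succinate (complex II) through ubiquinone, complex III and cytochrome c to oxygen at complex IV, and complex V, the ATP synthase, uses the resulting proton gradient. Most subunits are encoded in the nucleus and imported, while a few hydrophobic core subunits come from mitochondrial DNA. The nuclear genes are known to be controlled in part by the factors NRF1, GABP (an ETS factor) and YY1 and by co-activators of the PGC-1 family. No mitochondrially encoded subunit was among the symbols of the tables, so those are not analysed here.

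Promoter windows are shown first for 7 members that the results turn on. SDHB, COX5B and COX6A1 hold matches to at least 2 of 3 motifs searched, ATP5G1 and ATP5G2 encode the same mature protein but differ in the Zeb1 library, COX7B had the highest ratio in the Ovol2 library, and SDHA was the lowest member there. Each line gives the 250 bases before the RefSeq transcription start on build GRCh38.p14, 5′ to 3′ on the strand of the gene. Capitals mark matches, on either strand, to the NRF1 core GCATGCGC, the ETS core CCGGAAG or the YY1 core AAGATGGC. SDHB lies at chr1:17054033-17054282 (minus strand), COX5B at chr2:97645812-97646061 (plus), COX6A1 at chr12:120437863-120438112 (plus), ATP5G1 at chr17:48892537-48892786 (plus), ATP5G2 at chr12:53676084-53676333 (minus), COX7B at chrX:77899218-77899467 (plus) and SDHA at chr5:218070-218319 (plus).
SDHB: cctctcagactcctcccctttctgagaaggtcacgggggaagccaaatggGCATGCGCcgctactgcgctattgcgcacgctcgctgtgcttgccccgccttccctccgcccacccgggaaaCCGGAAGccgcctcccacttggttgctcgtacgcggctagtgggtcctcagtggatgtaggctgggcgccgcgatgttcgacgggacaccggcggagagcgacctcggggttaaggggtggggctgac
COX5B: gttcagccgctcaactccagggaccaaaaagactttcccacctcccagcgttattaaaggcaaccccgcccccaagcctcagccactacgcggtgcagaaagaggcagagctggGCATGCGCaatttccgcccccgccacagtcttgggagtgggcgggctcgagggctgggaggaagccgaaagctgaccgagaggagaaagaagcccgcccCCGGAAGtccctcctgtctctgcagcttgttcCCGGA
COX6A1: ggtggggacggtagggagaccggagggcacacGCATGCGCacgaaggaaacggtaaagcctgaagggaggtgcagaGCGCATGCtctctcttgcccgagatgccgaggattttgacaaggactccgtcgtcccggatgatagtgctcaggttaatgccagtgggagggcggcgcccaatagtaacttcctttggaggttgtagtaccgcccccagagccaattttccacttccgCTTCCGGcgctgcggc
ATP5G1: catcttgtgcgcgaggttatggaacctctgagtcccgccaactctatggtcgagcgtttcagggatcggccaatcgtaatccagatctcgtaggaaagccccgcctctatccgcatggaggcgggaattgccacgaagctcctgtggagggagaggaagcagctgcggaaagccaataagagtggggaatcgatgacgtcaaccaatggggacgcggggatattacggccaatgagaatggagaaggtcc
ATP5G2: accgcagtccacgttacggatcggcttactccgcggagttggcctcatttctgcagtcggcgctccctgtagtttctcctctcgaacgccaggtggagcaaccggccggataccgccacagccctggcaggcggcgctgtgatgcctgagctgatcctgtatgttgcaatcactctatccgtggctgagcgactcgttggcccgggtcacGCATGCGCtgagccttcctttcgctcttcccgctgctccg
COX7B: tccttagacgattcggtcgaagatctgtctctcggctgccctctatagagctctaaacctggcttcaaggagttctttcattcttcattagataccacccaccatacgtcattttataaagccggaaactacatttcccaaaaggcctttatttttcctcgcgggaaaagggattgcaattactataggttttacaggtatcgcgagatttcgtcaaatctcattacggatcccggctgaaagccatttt
SDHA: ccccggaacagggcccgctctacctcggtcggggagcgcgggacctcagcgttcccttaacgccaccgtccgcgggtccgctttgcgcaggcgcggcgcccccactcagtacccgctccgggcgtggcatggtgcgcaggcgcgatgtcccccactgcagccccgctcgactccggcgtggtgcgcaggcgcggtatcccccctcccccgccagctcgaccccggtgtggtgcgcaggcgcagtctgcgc

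In SDHB the NRF1 core begins 200 bases and the ETS core 128 bases before the start, and a YY1 core begins 10 bases after the first transcribed base, outside the bases shown. In COX5B the NRF1 core begins 136 bases and the ETS cores 37 and 5 bases before the start, the last of them running past the end of the window. COX6A1 holds NRF1 cores that begin 218 and 174 bases before the start and an ETS core at 16 bases. The window of ATP5G2 holds an NRF1 core 40 bases before the start. Those of ATP5G1, COX7B and SDHA hold none of the letters searched.

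RefSeq windows of 300 bases (250 before and 50 after the start) were matched by symbol for 71 of the 87 members that reached 1 FPKM (fragments relative to the length of the transcript and the size of the library) in any library. The NRF1 core was present in 15 of these 71 (21.1%), against 3.27% of all 27305 windows and 5.56% of the windows of 9617 other genes that reached 1 FPKM. The ETS core was present in 20 (28.2%), against 10.7% and 20.2%, and the YY1 core in 11 (15.5%), against 3.03% and 5.69%. At least 1 of the 3 was present in 35 of 71 members (49.3%), against 15.6% of all windows and 28.4% of those of the other genes. The ETS core ends and the YY1 core begins with AAG, so matches to these motifs can share bases. A match is a stretch of letters, not a measured binding site. Members with an NRF1 core had median log2 ratios of -0.65 (Zeb1), -0.07 (Snail) and 0.61 (Ovol2) over EV, and members without it -0.67, -0.12 and 0.75. For the ETS core these medians were -0.67, -0.15 and 0.88 with a match and -0.67, -0.08 and 0.65 without, and for the YY1 core -0.71, -0.13 and 0.64 with and -0.65, -0.11 and 0.75 without.

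The data were FPKM values on the authors' scale. The measure for each gene was the log2 of (FPKM + 1) in a factor library over (FPKM + 1) in the EV library, called the log2 ratio, and a gene was kept in a comparison if it reached 1 FPKM in either library. A kept gene was called higher or lower past 2-fold where that log2 ratio reached 1 or -1. Of the 98 members, 86 were kept with Zeb1 and with Snail and 87 with Ovol2, where UQCRHL passed through the Ovol2 library alone. The other 11 are isoforms of other tissues, pseudogenes or copies. Judged by the size of the smallest steps in the values, the Zeb1, Snail and Ovol2 libraries were 1.18, 1.09 and 0.829 times as deep as the EV library. At the depth so estimated the kept members rested on at least about 32 fragments in a library (UQCRHL), with a median over members near 1375. Counting error was thus small beside most differences below with Zeb1 and Ovol2. Most differences with Snail were small (median -0.10), and counting error may matter beside them. Spread between cultures was not measured. In bulk RNA, fewer cells of a type and less RNA per cell cannot be told apart.

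Each library stood highest for the factor it had been given (ZEB1 17.3, SNAI1 99.7 and OVOL2 78.3 FPKM, against 0.260, 0.152 and 6.32 FPKM in EV). The 6 epithelial markers KRT5, KRT14, KRT17, KRT18, TP63 and CDH1 summed to 2465, 7350 and 5023 FPKM in the Zeb1, Snail and Ovol2 libraries, against 9040 FPKM in EV, and all 6 were lower past 2-fold with Zeb1, 3 with Ovol2 (KRT5, KRT14 and TP63) and 0 with Snail. Their part in the member ratios was not tested. Markers of blood, endothelium, liver and muscle (PTPRC, PECAM1, HBB, ALB, DES and MYH7) were at most 0.0930 FPKM anywhere, and HBB was at 0 in all 4 libraries. The RNase RNAs RMRP and RPPH1 held 22.1%, 18.7% and 40.6% of all FPKM in the Zeb1, Snail and Ovol2 libraries, against 24.6% in EV. A share of summed FPKM is not a share of fragments. How far these RNAs move the scale of other genes was not tested. The median log2 ratio of all kept genes was -0.09 (Zeb1), 0.12 (Snail) and -0.51 (Ovol2), and member ratios are read against it.

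Respiratory chain transcripts were lower than in EV in the Zeb1 library and higher in the Ovol2 library. In the Snail library they were close to EV, with a median below that of all kept genes. The 98 members summed to 3590, 5377 and 10756 FPKM in the Zeb1, Snail and Ovol2 libraries, against 5947 FPKM in EV. As a share of FPKM without RMRP and RPPH1 they held 1.58%, 1.85% and 3.26%, against 2.11% in EV. In the Zeb1 library 84 of 86 kept members lay below EV, with a median log2 ratio of -0.65, where 55.9% of all kept genes lay below it. In the Snail library 65 of 86 lay below it with a median of -0.10, which became 0.04 under upper quartile scaling. With Snail 32.4% of all kept genes lay below EV, and their median was 0.12, or 0.25 under upper quartile scaling. In the Ovol2 library 76 of 87 lay above it with a median of 0.66, where 28.1% of all kept genes lay above it. The comparisons share the EV library, so they are not independent of one another.

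**Figure D1:**
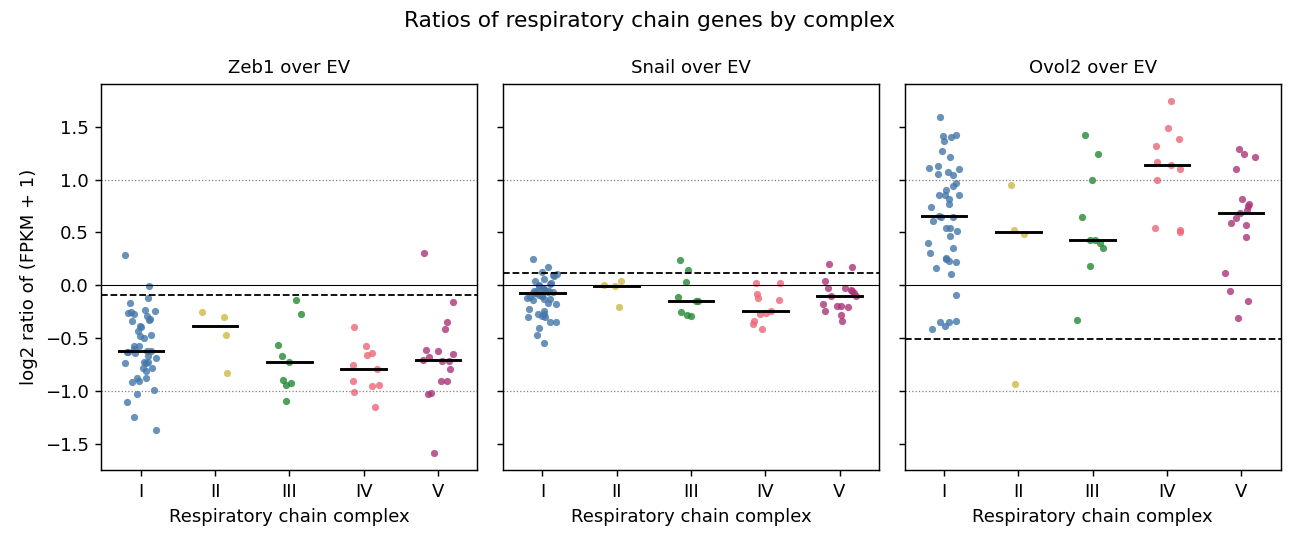
Log2 ratios of (FPKM + 1) over EV (vertical axis) for the kept members by complex (horizontal axis), in the Zeb1, Snail and Ovol2 libraries. Each point is 1 gene, bars are medians, the dashed line is the median of all kept genes and dotted lines mark 2-fold. Complex IV sits highest in the Ovol2 panel with a median of 1.14.

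Past 2-fold, the Zeb1 library had 10 members lower and 0 higher. Over all 11922 kept genes 8.49% were lower and 4.52% higher past 2-fold, so the 11.6% of members that were lower is near the background, while the medians were -0.65 for members and -0.09 for all kept genes. In the Snail library 0 members were past 2-fold in either direction, where 1.5% of all kept genes were lower and 1.00% higher. In the Ovol2 library 27 members (31.0%) were higher and 0 lower, where 6.82% of all 11812 kept genes were higher and 25.1% lower. COX5A (-1.01) was the member just inside 2-fold with Zeb1 and NDUFB2 (-0.99) the one just outside. With Ovol2 these were UQCR10 and COX5A, both at 1.00 after rounding. The split of all kept genes past 2-fold depended on the scale. With Zeb1 it was 539 higher and 1012 lower as deposited, 803 and 674 after centring, 817 and 699 under upper quartile scaling, 1017 and 605 without RMRP and RPPH1, and 655 and 693 after correction for transcript length. With Snail the same scales gave 117 and 175, 80 and 239, 174 and 136, 104 and 187, and 84 and 192. With Ovol2 they gave 806 and 2965, 830 and 2874, 2790 and 898, 569 and 3790, and 1019 and 922. Under each of these scales any members past 2-fold were on the lower side with Zeb1, and with Ovol2 on the higher side except for 1 without RMRP and RPPH1 (SDHA).

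**Figure D2:**
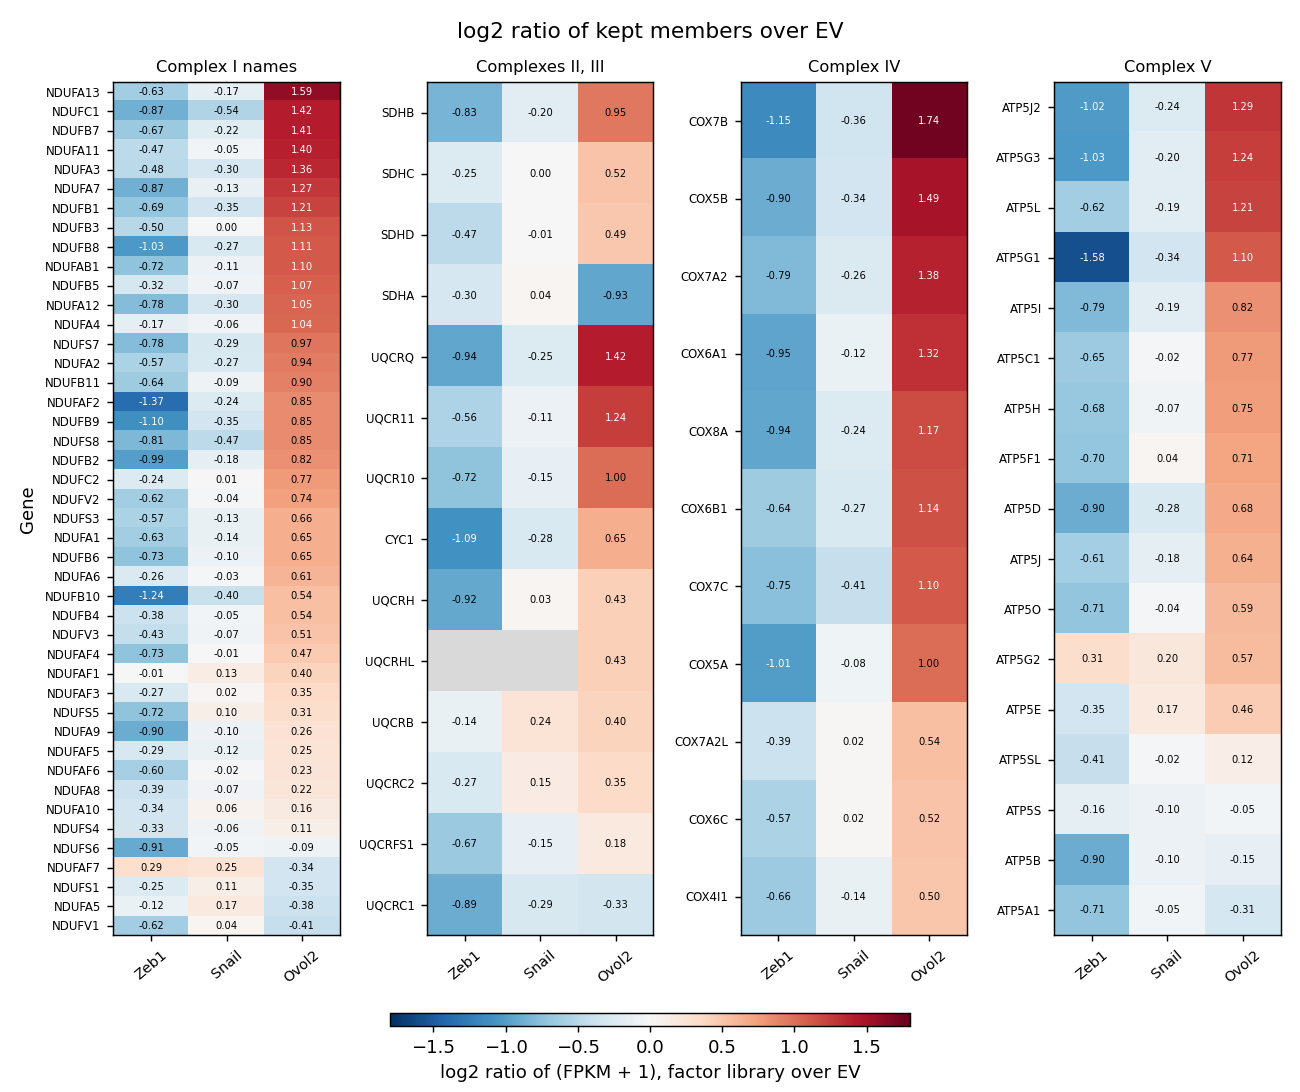
Log2 ratio of (FPKM + 1) over EV for 86 of the 87 kept members (rows, sorted by the Ovol2 column within a block) in the Zeb1, Snail and Ovol2 libraries (columns). Grey marks a gene not kept in that comparison. The Zeb1 column is below 0 except for NDUFAF7 and ATP5G2, and the Ovol2 column is above 0 in 76 of the members drawn.

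Complex IV, cytochrome c oxidase, had the highest median ratio of the 5 complexes in the Ovol2 library and the lowest in the Zeb1 library, on the scale as deposited. After correction for transcript length its medians were 0.67 with Ovol2, beside 0.64 for complex III, and -0.29 with Zeb1, where complexes III (-0.36) and V (-0.34) were lower. Its members summed to 932, 1364 and 3634 FPKM in the Zeb1, Snail and Ovol2 libraries, against 1618 FPKM in EV. All 11 kept members lay above EV with Ovol2, 7 of them past 2-fold, and all 11 lay below EV with Zeb1, 2 of them past 2-fold (medians 1.14 and -0.79, and -0.24 with Snail). The 7 were 63.6% of them, against 6.82% of all kept genes higher with Ovol2. The 2 were 18.2%, against 8.49% of all kept genes lower with Zeb1. COX7B, a small structural subunit, was at 62.6, 109 and 469 FPKM in the Zeb1, Snail and Ovol2 libraries, against 140 FPKM in EV (log2 ratios -1.15, -0.36 and 1.74). It was the highest member with Ovol2 and the lowest of this complex with Zeb1.

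COX5B, which binds zinc on the matrix side of the enzyme, was at 89.3, 133 and 474 FPKM in the Zeb1, Snail and Ovol2 libraries, against 168 FPKM in EV. COX7C, the most abundant member on average (mean 437 FPKM), was at 232, 294 and 834 FPKM, against 389 FPKM in EV. COX6B1, on the outer face of the enzyme, was at 116, 150 and 402 FPKM, against 181 FPKM in EV. Each of the 3 was highest in the Ovol2 library and lowest in the Zeb1 library. The other members higher past 2-fold with Ovol2 were COX7A2 (1.38), COX6A1 (1.32) and COX8A (1.17). COX4I1, the largest nuclear subunit and a site of nucleotide regulation, differed least in this complex with Ovol2, at 96.6, 139 and 216 FPKM in the factor libraries against 153 FPKM in EV (0.50 with Ovol2). COX5A, the partner of COX4I1 in the enzyme, was at 39.4 FPKM with Zeb1 against 80.5 FPKM in EV.

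Of the isoforms of other tissues, none reached 1 FPKM. COX4I2, known as the hypoxia and lung form, was listed at 0 except for 0.0118 FPKM in the Snail library. COX6A2, a heart and muscle form, was listed at 0 except for 0.0706 FPKM in the Ovol2 library. COX7B2 was listed at 0 throughout, COX8C was at most 0.0647 FPKM (EV), COX6B2, the testis form, at most 0.574 FPKM (Snail) and COX7A1, the muscle form, at most 0.614 FPKM (Snail). NDUFA4L2, a paralogue of NDUFA4 known to be induced by hypoxia, was at 0.141, 0.179 and 0.142 FPKM in the Zeb1, Snail and Ovol2 libraries, against 0.234 FPKM in EV. NDUFA4 itself, which carries a complex I name but is now known as a subunit of complex IV, was at 43.6, 47.2 and 102 FPKM, against 49.2 FPKM in EV. It was past 2-fold with Ovol2 (1.04) and close to EV with Zeb1 (-0.17) and Snail (-0.06).

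COX7A2 and COX7A2L occupy related positions, and COX7A2L is known for its part in joining complexes III and IV. COX7A2L was at 45.8, 61.6 and 88.6 FPKM in the Zeb1, Snail and Ovol2 libraries, against 60.6 FPKM in EV. COX7A2 was at 47.1, 68.7 and 215 FPKM, against 82.3 FPKM in EV. Of the summed FPKM of COX7A1, COX7A2 and COX7A2L, COX7A2L thus made up 49.1%, 47.0% and 29.1%, against 42.2% in EV.

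Complex I, NADH dehydrogenase, is the largest of the set, with 45 kept names. They summed to 1219, 1776 and 3521 FPKM in the Zeb1, Snail and Ovol2 libraries, against 1956 FPKM in EV. With Ovol2, 39 lay above EV and 13 were higher past 2-fold (median 0.66), or 28.9%, against 6.82% of all kept genes. With Zeb1, 44 lay below it and 4 were lower past 2-fold (median -0.62). These 4 were 8.89% of the kept names, near the 8.49% of all kept genes. NDUFA13, an accessory subunit of the membrane-bound part, was at 78.8, 109 and 370 FPKM in the Zeb1, Snail and Ovol2 libraries, against 123 FPKM in EV (1.59 with Ovol2). NDUFC1 was at 8.41, 10.8 and 45.0 FPKM, against 16.2 FPKM in EV, and it had the lowest member ratio in the Snail library (-0.54). The other accessory subunits higher past 2-fold with Ovol2 were NDUFB7 (1.41), NDUFA11 (1.40), NDUFA3 (1.36), NDUFA7 (1.27), NDUFB1 (1.21), NDUFB3 (1.13), NDUFB8 (1.11), the acyl carrier protein NDUFAB1 (1.10), NDUFB5 (1.07) and NDUFA12 (1.05), beside NDUFA4.

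The catalytic core of complex I lay on both sides of EV with Ovol2. The core subunits were picked out as a group after their values had been seen. NDUFV1, which binds NADH, was at 27.0, 43.1 and 31.4 FPKM in the Zeb1, Snail and Ovol2 libraries, against 42.0 FPKM in EV. NDUFS1, the largest iron-sulphur subunit, was at 21.6, 27.9 and 20.0 FPKM, against 25.9 FPKM in EV. With Ovol2 both lay below EV (-0.41 and -0.35) and turned above it under at least 1 of the other scales tried. NDUFS3, NDUFS7, NDUFS8 and NDUFV2 lay above it at 0.66, 0.97, 0.85 and 0.74. Core and accessory subunits had medians of 0.66 and 0.85 with Ovol2, and -0.62 and -0.63 with Zeb1. Corrected for transcript length these were 0.19 and 0.58 with Ovol2, and -0.20 and -0.17 with Zeb1.

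The 4 complex I names lower past 2-fold with Zeb1, a share near that of all kept genes, were NDUFAF2, NDUFB10, NDUFB9 and NDUFB8. NDUFAF2, an assembly factor, was at 6.85, 16.3 and 35.8 FPKM in the Zeb1, Snail and Ovol2 libraries, against 19.3 FPKM in EV (-1.37 with Zeb1). NDUFB10 was at 38.0, 69.1 and 134 FPKM, against 91.4 FPKM in EV (-1.24), NDUFB9 was at -1.10 and NDUFB8 at -1.03. Both NDUFAF2 and NDUFB10 were lowest in the Zeb1 library and highest in the Ovol2 library. The 7 assembly factors together had medians of -0.29 (Zeb1), -0.01 (Snail) and 0.35 (Ovol2). NDUFAF7, a methyltransferase, was the exception, at 6.40, 6.22 and 3.79 FPKM in the factor libraries against 5.05 FPKM in EV (0.29, 0.25 and -0.34).

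Complex II, succinate dehydrogenase, is encoded wholly in the nucleus by 4 genes. SDHA, the flavin-bearing catalytic subunit, was at 21.6, 27.7 and 13.6 FPKM in the Zeb1, Snail and Ovol2 libraries, against 26.9 FPKM in EV. SDHB, its iron-sulphur partner, was at 27.8, 43.7 and 98.3 FPKM, against 50.4 FPKM in EV. With Ovol2 the 2 catalytic subunits thus went apart, SDHA to -0.93, the lowest of all members, and SDHB to 0.95, neither past 2-fold. SDHA lay below and SDHB above EV under all 5 scales tried for Ovol2. Upper quartile scaling raised the Ovol2 library by 0.93 on the log2 scale, about the size of the SDHA ratio. SDHA was thus nearly level with EV on that scale. The membrane anchors SDHC and SDHD were at 15.1 and 60.6 FPKM with Ovol2, against 10.2 and 43.0 FPKM in EV. SDHA has near-identical pseudogene copies in the tables (SDHAP1 at 3.46, 3.59 and 1.13 FPKM in the Zeb1, Snail and Ovol2 libraries, against 2.82 FPKM in EV, and SDHAP2 at 3.63 FPKM with Zeb1 and 1.25 FPKM with Ovol2, against 2.98 FPKM in EV). The labels do not say how reads were divided among these copies, so the level of SDHA is uncertain.

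**Figure D3:**
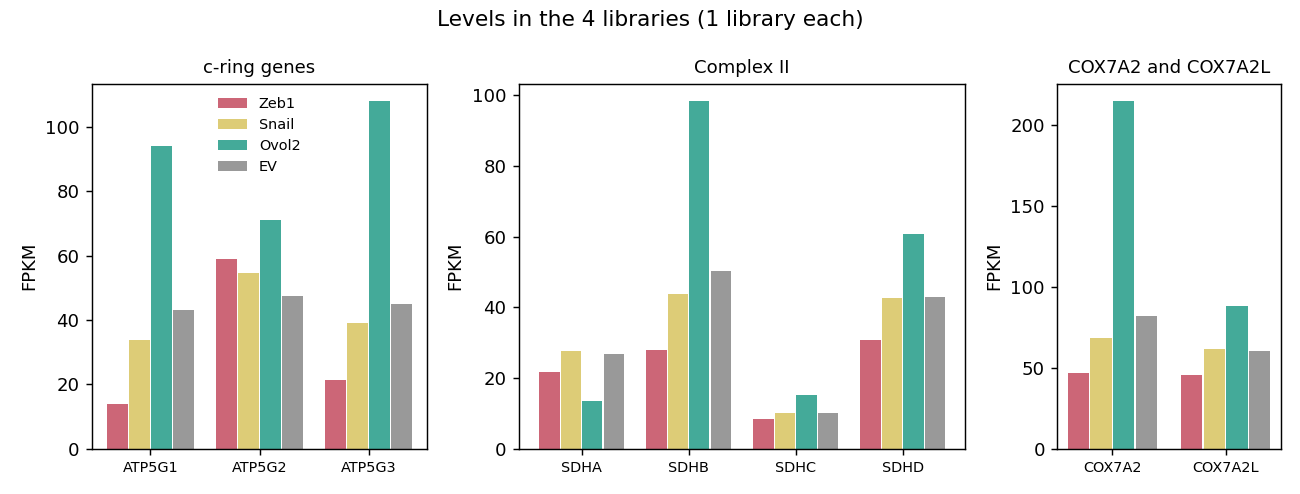
FPKM (vertical axes, from 0) of the genes of the ATP synthase c-ring, of complex II and of COX7A2 and COX7A2L in the Zeb1, Snail, Ovol2 and EV libraries, with 1 library per bar and no error bars. ATP5G2 in the Zeb1 library (58.9 FPKM) stands above EV (47.4 FPKM) while ATP5G1 and ATP5G3 stand below, and SDHA is lowest in the Ovol2 library.

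Complex III, cytochrome bc1, summed to 376, 597 and 967 FPKM in the Zeb1, Snail and Ovol2 libraries, against 645 FPKM in EV. CYC1, the cytochrome c1 subunit that hands electrons to cytochrome c, was the only member of this complex lower past 2-fold with Zeb1, at 35.3, 62.4 and 119 FPKM in the factor libraries against 75.9 FPKM in EV (-1.09 with Zeb1). CYC1 alone made up 11.1% of the kept members of this complex, near the 8.49% of all kept genes lower with Zeb1. The small subunits UQCRQ, UQCR11 and UQCR10 were higher past 2-fold with Ovol2. They were 30.0% of its kept members, against 6.82% of all kept genes. UQCRQ was at 36.2, 59.2 and 190 FPKM, against 70.3 FPKM in EV (1.42 with Ovol2). UQCR11 and UQCR10 stood at 1.24 and 1.00. The Rieske iron-sulphur protein UQCRFS1 was at 51.6 FPKM with Ovol2 against 45.4 FPKM in EV (0.18). The core protein UQCRC1 was at 73.6, 113 and 109 FPKM in the factor libraries, against 137 FPKM in EV, and was the only kept member of complex III below EV with Ovol2 (-0.33), on the scale as deposited. UQCRB differed least with Zeb1 (19.2 against 21.2 FPKM) and had the highest ratio of the complex with Snail (0.24). UQCRHL is an intronless copy of UQCRH, and its 0.722, 0.559 and 1.03 FPKM in the factor libraries, against 0.511 FPKM in EV, may hold reads of UQCRH (75.1, 146 and 194 FPKM, against 143 FPKM in EV).

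Complex V, the ATP synthase, summed to 975, 1514 and 2447 FPKM in the Zeb1, Snail and Ovol2 libraries, against 1597 FPKM in EV. Its c-ring is encoded by ATP5G1, ATP5G2 and ATP5G3, whose products differ in the import sequence but give the same mature protein. ATP5G1 was at 13.8, 33.9 and 93.9 FPKM in the Zeb1, Snail and Ovol2 libraries, against 43.1 FPKM in EV (-1.58, -0.34 and 1.10). ATP5G3 was at 21.4, 39.1 and 108 FPKM, against 44.9 FPKM in EV (-1.03, -0.20 and 1.24). ATP5G2 was at 58.9, 54.7 and 71.1 FPKM, against 47.4 FPKM in EV (0.31, 0.20 and 0.57). ATP5G1 thus had the lowest ratio of all members in the Zeb1 library and ATP5G2 the highest, and their signs were the same under all 5 scales tried. The c-ring genes were close to equal in EV, where ATP5G1, ATP5G2 and ATP5G3 made up 31.8%, 35.0% and 33.2% of their summed FPKM. In the Zeb1 library these shares were 14.7%, 62.6% and 22.8%, in the Snail library 26.5%, 42.8% and 30.6%, and in the Ovol2 library 34.5%, 26.1% and 39.5%. A factor applied to a whole library leaves these shares unchanged, but a correction for transcript length does not, and it left ATP5G1, ATP5G2 and ATP5G3 at -0.93, 0.67 and -0.70 with Zeb1.

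Subunits of the catalytic head lay on both sides of EV in the Ovol2 library. ATP5B, the catalytic beta subunit, was at 155, 271 and 261 FPKM in the factor libraries, against 290 FPKM in EV, and ATP5A1, the alpha subunit, at 96.2, 153 and 128 FPKM, against 158 FPKM in EV. Both lay below EV with Ovol2 (-0.15 and -0.31) and with Zeb1 (-0.90 and -0.71), and with Ovol2 both turned above it under at least 1 other scale. The other head subunits ATP5C1, ATP5D and ATP5E stood at 0.77, 0.68 and 0.46 with Ovol2. ATP5J2, a small membrane subunit, was at 63.0, 109 and 318 FPKM, against 129 FPKM in EV (-1.02, -0.24 and 1.29). ATP5L stood at 1.21 with Ovol2, and the peripheral stalk members ATP5H, ATP5F1, ATP5J and ATP5O at 0.75, 0.71, 0.64 and 0.59. ATP5I, another small membrane subunit, was at 118, 179 and 362 FPKM in the factor libraries (log2 ratios -0.79, -0.19 and 0.82), and ATP5E, the epsilon subunit, at 115, 166 and 202 FPKM, against 147 FPKM in EV. NDUFS5 of complex I, also among the 10 most abundant members, was at 105, 186 and 214 FPKM, against 173 FPKM in EV, and COX8A at 72.7, 119 and 317 FPKM, against 140 FPKM in EV.

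The members that lay below EV with Ovol2 mostly had transcripts that are long among the members, and the members as a whole have short ones. The members with the longest transcripts, NDUFA9 (4502 bases) and UQCRFS1 (3475 bases), lay above EV with Ovol2. Transcript length, taken from GENCODE 29, had a median of 791 bases over the 87 kept members and 2394 bases over all kept genes with a length. Across the kept members longer transcripts had lower log2 ratios in the Ovol2 library (Spearman's rho -0.577, n = 87 genes) and higher ones in the Zeb1 (0.371, n = 86) and Snail (0.439, n = 86) libraries. All kept genes showed the same signs (-0.489, 0.273 and 0.265). Genes of a library share its preparation, so these are descriptions across genes. The part that length plays in the member ratios was not tested, and values within length ranges are given beside them.

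Among transcripts under 600 bases, 12 of 21 members were higher past 2-fold with Ovol2, and 99 of 635 other kept genes were (medians 1.10 and -0.10). From 600 to 1000 bases it was 12 of 33 members and 170 of 885 other genes (0.68 and 0.30). From 1000 to 2000 bases the share went the other way, with 1 of 20 members and 285 of 2983 other genes higher, although the medians were 0.43 and -0.11. Above 2000 bases 2 of 13 members and 211 of 7020 others were higher (0.25 and -0.76). With Zeb1, 3 of 21 members and 190 of 613 other genes were lower past 2-fold under 600 bases, a smaller share of the members, with medians of -0.78 and -0.65. From 600 to 1000 bases it was 6 of 33 and 119 of 875 (-0.71 and -0.33), and from 1000 to 2000 bases 1 of 20 and 257 of 2971 (-0.50 and -0.19). Above 2000 bases 0 of 12 members and 421 of 7161 others were lower (-0.37 and 0.02). In each range the member median lay above that of other genes with Ovol2 and below it with Zeb1, by the least with Zeb1 under 600 bases. After subtraction of the running median over length, the member medians were -0.28 (Zeb1), -0.12 (Snail) and 0.52 (Ovol2), with 72 of 86, 72 of 86 and 13 of 87 members below 0.

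**Figure D4:**
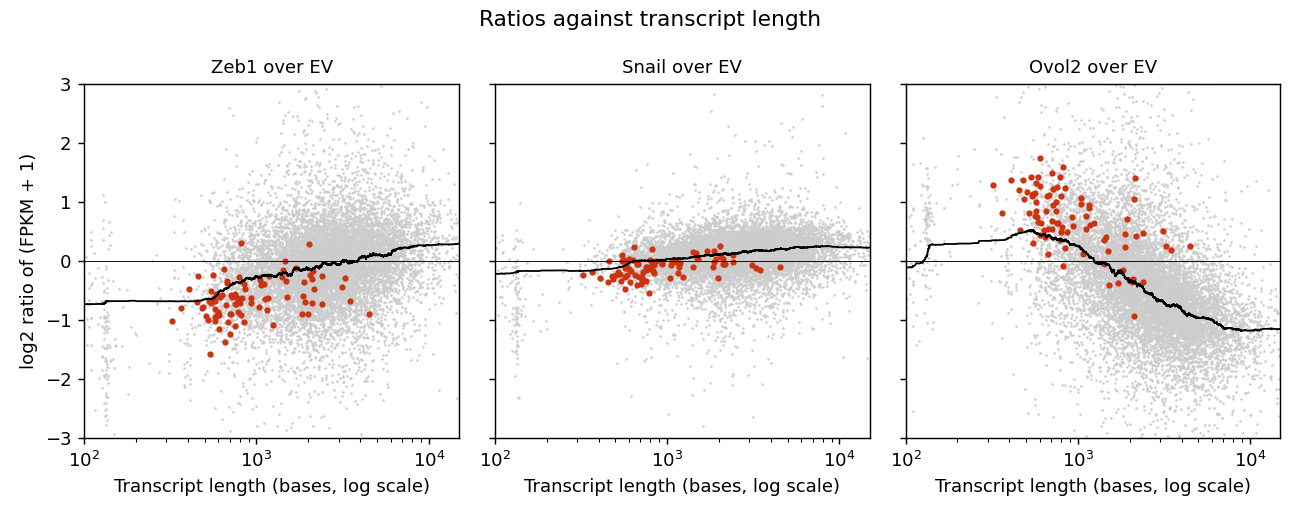
Log2 ratio of (FPKM + 1) over EV (vertical axis) against transcript length in bases (horizontal axis, log scale) for the members (red) and all other kept genes (grey) in the Zeb1, Snail and Ovol2 libraries. The black line is the running median of neighbouring genes by length. In the Ovol2 panel the line falls with length and most members lie above it, and in the Zeb1 panel most lie below it.

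Of the 27 members higher past 2-fold with Ovol2, 6 stayed past it after this length correction, namely NDUFA11 (1.77), NDUFA4 (1.38), COX7B (1.30), NDUFA13 (1.25), COX5B (1.13) and NDUFC1 (1.06). NDUFA11 and NDUFA4 were given 2154 and 2130 bases, well above the short messenger RNA these small subunits are known for, so their corrected values are uncertain, and both were lower before correction (1.40 and 1.04). With lengths over protein-coding genes alone 4 stayed past 2-fold, NDUFC1 was at 0.97 and NDUFA4 had no value. With lengths over all kept genes, NDUFV3 (1.20), NDUFA9 (1.17) and ATP5F1 (1.00) passed 2-fold anew, from 0.51, 0.26 and 0.71 before correction. They were given 3126, 4502 and 1917 bases, above the member median of 791 bases. With these, 9 of 87 members (10.3%) were higher past 2-fold after length correction, close to the 8.78% of all genes with a length. The member median stayed at 0.52 against 0.00. None of the 10 lower with Zeb1 stayed past 2-fold, among them ATP5G1 (-0.93) and NDUFAF2 (-0.91), where 5.92% of all genes were lower. GENCODE lengths may differ from those of the annotation the authors used. Under all 5 scales (as deposited, centred, upper quartile, without RMRP and RPPH1, and length-corrected) 66 of 86 members stayed below EV with Zeb1, and 67 of 87 stayed above it with Ovol2. With Snail, 34 stayed below and 7 above, so for most members the sign with Snail depended on the scale.

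At 1.5-fold, 53 of 86 members were lower with Zeb1 and 0 higher, where 21.3% of all kept genes were lower and 12.3% higher. With Ovol2 50 were higher and 1 lower (SDHA), where 12.7% of all kept genes were higher and 46.1% lower. With Snail 0 were past 1.5-fold either way, where 4.59% of kept genes were higher and 4.36% lower. By adjusted p below 0.05 in the authors' deposited tables, 78 members were lower and 2 higher with Zeb1, where 51.9% of kept genes were lower and 41.0% higher. In the authors' deposited table for Snail, 34 members were lower and 8 higher, where 26.8% of kept genes were lower and 60.3% higher. In the authors' deposited table for Ovol2, 68 members were higher and 7 lower, where 25.3% of kept genes were higher and 69.7% lower. Those p-values call most genes of the tables and measure no spread between cultures.

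Other genes of the same organelle were read from lists, beside the members' medians. Past 2-fold, 8.49% of all kept genes were lower and 4.52% higher with Zeb1. With Ovol2 25.1% of all kept genes were lower and 6.82% higher, and the counts of each list are read against these shares. Mitochondrial ribosomal proteins, which translate the mitochondrially encoded subunits, had 10 of 77 lower and 0 higher past 2-fold with Zeb1 (median -0.57), and 0 lower and 11 higher with Ovol2 (median 0.38). MRPL52 (-1.32), MRPL14 (-1.19) and MRPL3 (-1.17) were lowest with Zeb1, and MRPL21 (1.46), MRPL54 (1.34) and MRPL43 (1.33) highest with Ovol2. Assembly factors of complexes I to V, a list that holds the 7 NDUFAF members too, had 3 of 43 lower with Zeb1 (median -0.37), namely NDUFAF2, the complex III factor BCS1L (-1.08) and the ATP synthase inhibitor ATPIF1 (-1.01). With Ovol2 4 were higher and 1 lower (median 0.31). The copper-handling complex IV factor COA6 was at 7.01, 12.2 and 49.3 FPKM in the Zeb1, Snail and Ovol2 libraries, against 14.0 FPKM in EV (1.75 with Ovol2), followed by PET100 (1.20), TMEM126B (1.11) and ATPAF2 (1.03). LRPPRC, which stabilises mitochondrial messenger RNA, was lower at 9.29 FPKM with Ovol2 against 27.2 FPKM in EV (-1.46). In the Snail library 0 genes of these lists were past 2-fold. Corrected for transcript length, the ribosomal list had medians of -0.34 (Zeb1) and 0.31 (Ovol2), and the assembly factors -0.16 and 0.38. Those of the members were -0.28 and 0.52.

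Electron carriers and ubiquinone synthesis had 3 of 20 lower with Zeb1 (median -0.55), where 8.49% of all kept genes were lower. They were the ADP/ATP carrier SLC25A5 (-1.33) and the quinone enzymes PDSS1 (-1.24) and COQ3 (-1.11). With Ovol2 the glycerol phosphate dehydrogenase GPD2 was lower (-1.28) and 0 were higher (median 0.16), where 6.82% of all kept genes were higher. After length correction the medians of the carrier list were -0.43 with Zeb1 and 0.16 with Ovol2. Of the regulators of mitochondrial biogenesis, 0 of 15 were higher and 4 lower with Ovol2 (median -0.68, against -0.51 for all kept genes), near the 25.1% of all kept genes that were lower. Corrected for transcript length the median of this list was -0.10. PPARGC1A, which encodes the co-activator PGC-1 alpha, was at 5.74, 3.98 and 0.612 FPKM in the Zeb1, Snail and Ovol2 libraries, against 5.04 FPKM in EV (-1.91 with Ovol2). The related PPRC1 (-1.24), the stress factor NFE2L2 (-1.33) and MYC (-1.05) were the others. With Zeb1, MYC was at 65.3 FPKM against 211 FPKM in EV (-1.67) and the nuclear receptor ESRRA at 13.8 against 34.1 FPKM (-1.24). NRF1 was at 3.06, 3.17 and 1.41 FPKM, against 2.87 FPKM in EV, GABPA at 6.94, 7.41 and 3.08 FPKM, against 5.09 FPKM. YY1 had log2 ratios of -0.02, 0.26 and -0.08. TFAM, which packages and transcribes mitochondrial DNA, was at 7.31, 12.9 and 4.90 FPKM, against 10.7 FPKM in EV.

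**Figure D5:**
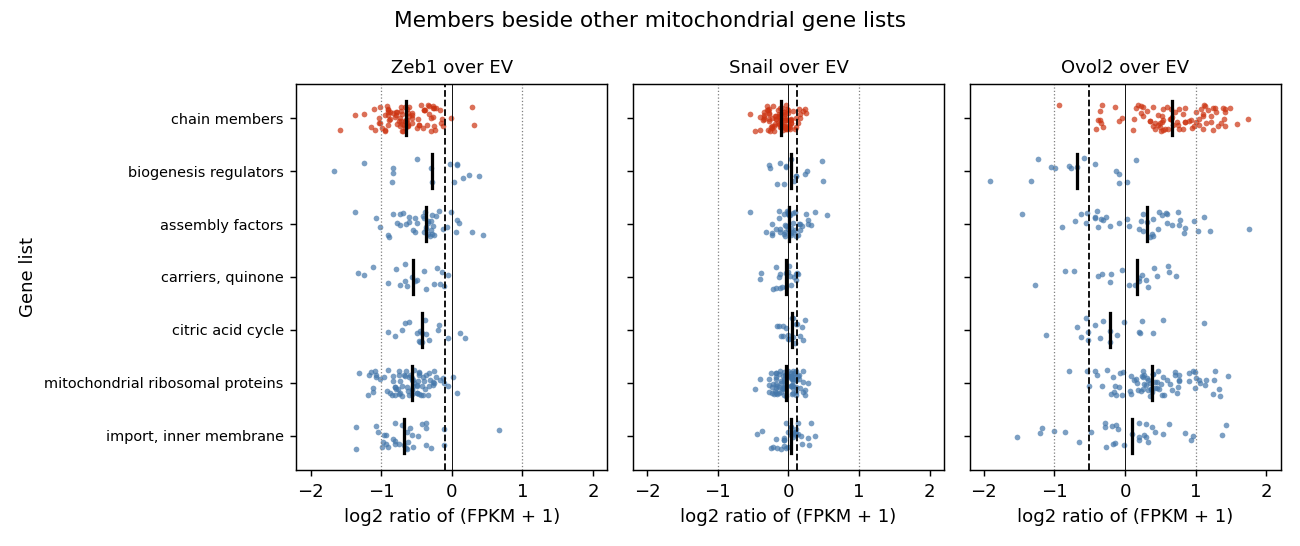
Log2 ratios of (FPKM + 1) over EV (horizontal axis) for the kept respiratory chain members (red) and 6 other mitochondrial gene lists (blue), 1 point per gene, in the Zeb1, Snail and Ovol2 libraries. Black bars are medians, the dashed line is the median of all kept genes and dotted lines mark 2-fold. In the Ovol2 panel the members have the highest median (0.66) and the biogenesis regulators the lowest (-0.68). Corrected for transcript length, which is not drawn, these were 0.52 and -0.10.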

How the data were processed

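RNA was sequenced from 4 sorted cell populations, 1 library each. The values the authors deposited were read as FPKM, since TopHat, Cufflinks and Cuffdiff (build hg19) appear in the submitters' processing notes, although no header names the unit. Tool versions, annotation and scaling between libraries are not stated. The library kit named in the labels' protocols (TruSeq RNA v2) does not mark strand, so antisense reads cannot be told apart. Per the file headers, the authors also deposited a signed fold (a score, negative where the factor library is lower) and Benjamini-Hochberg adjusted p-values. Folds and p-values come from 1 library against 1, with 8 degrees of freedom, and the p-values served as an alternative call.

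Values of 43 repeated rows were added up by symbol. Log2 ratios with a pseudocount of 1 FPKM, which understates differences of low genes, were computed in Python 3.11.15 with pandas 2.3.3 over whole tables, with a filter of 1 FPKM in either library. The 2-fold rule stands in for a test. The steps were tested on simulated data. Lengths are medians of GENCODE 29 basic transcripts, and older symbols were matched through RefSeq synonyms. Named genes are all members past 2-fold, extremes of each complex, the 10 most abundant, isoform sets and leading genes of other lists. Core subunits of complex I were chosen after their values were seen. The members and lists were chosen with earlier results of these data known. No protein sequence was compared. The values of 1 member are not reported here, although it is counted in the totals.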

Additional observations from a re-analysis of the deposited data

How the results depend on the processing

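No paired analysis was possible because each group held 1 library, and no library could be left out for the same reason. With Zeb1 the number of members lower past 2-fold, 10 on the scale as deposited, was 3 after centring on well expressed genes or upper quartile scaling, 2 without RMRP and RPPH1, and 0 after correction for transcript length. These were at most 3.49% of members, where 5.65%, 5.78%, 4.98% and 5.92% of all genes were lower under the 4 scales, so a smaller share of members than of all genes was lower. The member median was -0.47, -0.44, -0.35 and -0.28 in that order, and that of all genes 0.09, 0.10, 0.19 and 0.00. With Ovol2 the number higher, 27 as deposited, was 75 under upper quartile scaling, 14 without RMRP and RPPH1 (where 1 was lower) and 9 after length correction, with medians of 1.58, 0.45 and 0.52. These were 86.2%, 16.3% and 10.3% of members, against 22.8%, 4.84% and 8.78% of all genes, the last a share near the background. The medians of all genes were 0.26, -0.67 and 0.00 on these scales. The median with Snail, -0.10, was -0.22 after centring and turned to 0.04 under upper quartile scaling. All genes had medians of 0.12, 0.00 and 0.25 on these scales, so the member median lay below theirs on each. Centring, upper quartile scaling and leaving out RMRP and RPPH1 each apply the same factor to a whole library, so members and other genes move almost alike. Length correction moves each gene by its length. Why the libraries differ in these factors was not tested. Length correction over protein-coding genes alone, chosen after seeing the data, gave 0 lower and a median of -0.23 with Zeb1, and 7 higher (8.14%, against 8.65% of all genes) and 0.46 with Ovol2. A call at 1.5-fold gave 53 lower with Zeb1, and 50 higher and 1 lower with Ovol2. By the adjusted p-values below 0.05 in the authors' deposited tables, 78 members were lower and 2 higher with Zeb1, 34 and 8 with Snail, and 7 and 68 with Ovol2. A pseudocount of 0.1 FPKM, no filter, a filter of 5 FPKM, and structural subunits alone left each count of members within 1.5 times and each direction in place. Over all kept genes the smaller pseudocount gave 885 higher and 1541 lower with Zeb1 (539 and 1012 with 1 FPKM), 217 and 361 with Snail (117 and 175), and 1008 and 4305 with Ovol2 (806 and 2965). The filter of 5 FPKM gave 84 and 109 with Snail. Correction over protein-coding genes gave 569 and 620 with Zeb1, 71 and 150 with Snail, and 934 and 840 with Ovol2. Counting error at the estimated depth was small beside most differences with Zeb1 and Ovol2 but may matter for those with Snail. Spread between cultures was not measured.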

Other observations

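The import and inner membrane genes of the mitochondrion, which bring in and fold the nuclear-encoded subunits, had a median near that of the members in the Zeb1 library (-0.68 and -0.65) and below it in the Ovol2 library (0.10 and 0.66), on the scale as deposited. Corrected for transcript length, these medians were -0.48 and -0.28 with Zeb1, and 0.27 and 0.52 with Ovol2. With Zeb1, 4 of 33 were lower past 2-fold and 0 higher, where 8.49% of all kept genes were lower. The matrix chaperonin HSPD1 was at 68.9, 203 and 60.5 FPKM in the Zeb1, Snail and Ovol2 libraries, against 177 FPKM in EV (-1.35 with Zeb1, -1.53 with Ovol2). Its co-chaperonin HSPE1 was at 34.3, 80.1 and 73.6 FPKM, against 89.5 FPKM in EV (-1.36 and -0.28). TOMM5 (-1.08) and the prohibitin PHB (-1.05) were the others lower with Zeb1. With Ovol2, 2 were higher, the small import subunits TIMM8B (1.43) and TOMM6 (1.37), where 6.82% of all kept genes were higher and 25.1% lower. The 4 lower were HSPD1, the cristae organiser IMMT (-1.21), the fusion GTPase OPA1 (-1.18) and the import oxidoreductase CHCHD4, just past 2-fold.

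The citric acid cycle, whose products feed complexes I and II, had 0 of 19 genes past 2-fold with Zeb1 (median -0.42) and with Snail (median 0.05). Of all kept genes 8.49% were lower and 4.52% higher with Zeb1, and 25.1% lower and 6.82% higher with Ovol2. With Ovol2, SUCLG1, a subunit of succinyl-CoA ligase, was higher at 89.7 FPKM against 40.9 FPKM in EV (1.11), and DLD, the shared dehydrogenase subunit of the keto acid complexes, was lower at 8.81 FPKM against 20.3 FPKM (-1.12). The median there was -0.22, and 0.35 after correction for transcript length.

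The antisense names left out by the rule were low. NDUFV2-AS1 was at 0.835, 0.172 and 0.102 FPKM in the Zeb1, Snail and Ovol2 libraries, against 0.496 FPKM in EV. NDUFA6-AS1 and NDUFB2-AS1 were at most 0.421 and 0.250 FPKM, both in EV.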
